A study of Mus musculus with 9 samples.

Results

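The genes that encode the microtubule motors kinesin and dynein, their accessory chains, the tubulins and a small set of microtubule-binding proteins were followed across 3 mouse striatal cell lines. Members were chosen by symbol, with earlier results of these data known. They were the rows named Kif, Klc1 to Klc4, Dync, Dynl, Dctn1 to Dctn6, Tuba, Tubb or Tubg. Mapt, Map1a, Map1b, Map2, Map4, Dcx and Stmn1 were also taken. The rule found 95 of 36410 rows of the count table. Ribosome-protected fragments (footprints, the short stretches of mRNA that a ribosome shields from nuclease) were counted per gene in 3 libraries of each line. The lines are called control (STHdhQ7/Q7 cells), HD-het (STHdhQ7/Q111 cells) and HD-homo (STHdhQ111/Q111 cells). Control cells, from wild-type embryos, carry 7 glutamines in both huntingtin alleles, HD-het cells carry 7 in 1 allele and 111 in the other, and HD-homo cells carry 111 in both. All are immortalized striatal cells from C57/BL6 mouse embryos, all were treated with cycloheximide for 10 min before lysis, and all footprints were taken from the 80S monosome fraction at 26 to 32 nt. With a single cell line per genotype, the effects of genotype and of line cannot be told apart. No source states that the libraries of a line came from separate cultures, so p-values measure the spread between these libraries, which may be technical.

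Microtubules are hollow polymers of alpha- and beta-tubulin that grow from gamma-tubulin complexes. Most kinesins walk along them towards the plus end and carry vesicles, organelles and mRNA outward in neurons, whereas a separate group of kinesins builds the mitotic spindle in dividing cells. Cytoplasmic dynein, together with its activator dynactin, walks towards the minus end. Huntingtin, the protein altered in Huntington disease, is known to bind dynein directly and both motors through Hap1.

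Tubulin genes are so alike that a footprint often cannot be assigned to a single gene. The last 30 coding bases, stop codon included, are shown because they encode the acidic tail in which tubulins differ most (GENCODE release M21, build GRCm38, strand of the gene). For the alpha-tubulins, capitals mark the bases that differ from Tuba1b, at chr15:98931582-98931611 on the minus strand, chr15:99037980-99038009 (plus) for Tuba1c and chr1:75215622-75215651 (minus) for Tuba4a.
Tuba1b: gagggggaggaagaaggagaggagtactaa
Tuba1c: gaAggAgaCgaTgaGggTgaggaAtaTtaa
Tuba4a: TaTgAggaCgaGgaTgAGgGAgaAGaGtaG
Tuba1c differs from Tuba1b at 8 of these 30 bases and Tuba4a at 14. The codon before the stop encodes tyrosine in Tuba1b and Tuba1c, the residue that Ttl adds and vasohibins remove, and glutamate in Tuba4a, whose product is therefore made without that tyrosine. For the beta-tubulins Tubb2a (chr13:34074468-34074497, minus strand) and Tubb2b (chr13:34127471-34127500, minus strand), capitals mark the 3 bases at which they differ from each other.
Tubb2a: gaggaggaGgagggTgaAgatgaggcttga
Tubb2b: gaggaggaAgagggCgaGgatgaggcttga
Over whole coding sequences, cut into all stretches of 28 nt, 96.5% of those in Tuba1a, 97.6% in Tuba1b and 95.2% in Tuba1c occur exactly in another gene or pseudogene of the annotation. The share was 80.2% in Tubb4b, 77.3% in Tubb2b, 69.9% in Tubb2a, 57.2% in Tuba3b and 51.0% in Dynll1, but only 10.8% in Tuba4a, 6.49% in Tubb3 and 5.73% in Tubb5. The copies Dynlt1a, Dynlt1c and Dynlt1f share every stretch and Dynlt1b 93.3% of them. Stmn1 shares 96.5%, mostly with the pseudogene Gm11223, and the kinesin pair Kifc1 and Kifc5b share 76.3% and 71.6%. In all, 16 of the 93 members with a coding sequence share at least 50% of their stretches, 23 share fewer and 54 share none. Among the last are Kif5a, Kif5b, Kif5c, Kif26b, Kif21a, Kif21b, Dync1h1, Map1b and Map4. How the counting treated fragments that fit several genes is not given in the sources used here, so single values of the 16 genes are uncertain, and sums over a family are given beside those of the tubulins and Dynlt1. By RefSeq gene positions many members overlap other genes. Examples are Kif5a with Dctn2, Klc3 with Ercc2, Kif20a with Brd8 and Cdc23, and Tuba4a with Stk16. Others are Klc1 with Xrcc3, Map1a with Ppip5k1 and Trp53bp1, Kif2a with Dimt1, Dync2h1 with Dcun1d5 and Tubb4b with Fam166a. Whether the counting used the strand is not given in the sources used here either. Values of these and other overlapping members may therefore hold fragments of their neighbours.

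Library totals ran from 22504543 to 41888701 counts, of which the members took 1.00% to 1.20%. Levels are given as counts per 1000000 of the library total scaled by TMM (CPM), which compares libraries but not genes of different length. Of the 95 members, 2 had no count in any library, 82 passed the filter on low counts and were tested among 12678 genes with edgeR, and 19 had a mean under 1 CPM in every line. The labelled cell type was only partly borne out by its markers. Of 12 markers of striatal projection neurons, Bcl11b, Drd1 and Drd2 stayed at or under 3 counts in all 9 libraries, and the 12 summed to 45.2 to 51.6 CPM in control, 48.5 to 52.1 in HD-het and 68.7 to 75.9 in HD-homo cells. In the same order of lines, the 9 markers of neural progenitors summed to 9596 to 9861, 9016 to 9839 and 6018 to 6552 CPM, with Gsx2 at or under 3 counts. The 7 markers of mesenchymal or mural cells summed, in that order again, to 6832 to 9748, 28675 to 30885 and 5593 to 7142 CPM, with Thy1 at or under 3 counts. All 6 of those tested were higher in HD-het cells than in control, beside 31.0% of all genes. In HD-homo cells 1 was higher and 2 were lower than in control, beside 23.3% and 22.3%. Markers of astrocytes summed to at most 14.2 CPM in any library, of the oligodendrocyte lineage to at most 1.11 and of microglia to at most 26.8. The part of these markers in the results below was not tested.

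The motor and tubulin genes that differed among the lines did so in both directions, and at shares that did not exceed those over all genes. Any difference among the 3 lines was called for 58 of the 82 members tested, beside 78.4% of all genes tested. In HD-het against control cells, 18 members were higher and 23 lower at an adjusted p under 0.05, beside 31.0% and 29.1% of all genes. In HD-homo against control cells, 12 were higher and 16 lower, beside 23.3% and 22.3%, and with library totals alone as the scaling the split was 13 and 10. The count of lower members was 10 without HD-homo replicate 3 and 9 without control replicate 3. In HD-homo against HD-het cells, 27 were higher and 23 lower, beside 34.6% and 32.8%. A change of at least 2-fold was called for 13, 8 and 18 members in the 3 comparisons, beside 20.8%, 17.2% and 27.3% of all genes. Without regard to direction, 41, 28 and 50 members were called, beside 60.1%, 45.7% and 67.5% of all genes. The libraries of the lines compared did not overlap for 53, 34 and 50 members, beside 71.2%, 55.5% and 69.5% of all genes. The median log2 fold change of the 82 members was -0.07, -0.04 and -0.01, and that of all genes 0.02 in each comparison. The comparisons share libraries, so their counts are not independent of each other. The commonest pattern was a level that was lower in HD-het than in both other lines, which did not differ past the threshold from each other. It was shown by 14 members, beside 14.6% of all genes tested, among them Kif11, Kif2a, Dynll1, Dynll2, Tuba1c, Tuba3b, Tubb3 and Tubg1. The mirror pattern, HD-het above both other lines, was shown by 10, beside 12.5% of all genes, among them Dctn1, Dync1i2, Dync2h1, Kif20a, Kif3b and Map4. A further 21 members passed the threshold in no comparison, beside 17.8% of all genes.

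**Figure D1:**
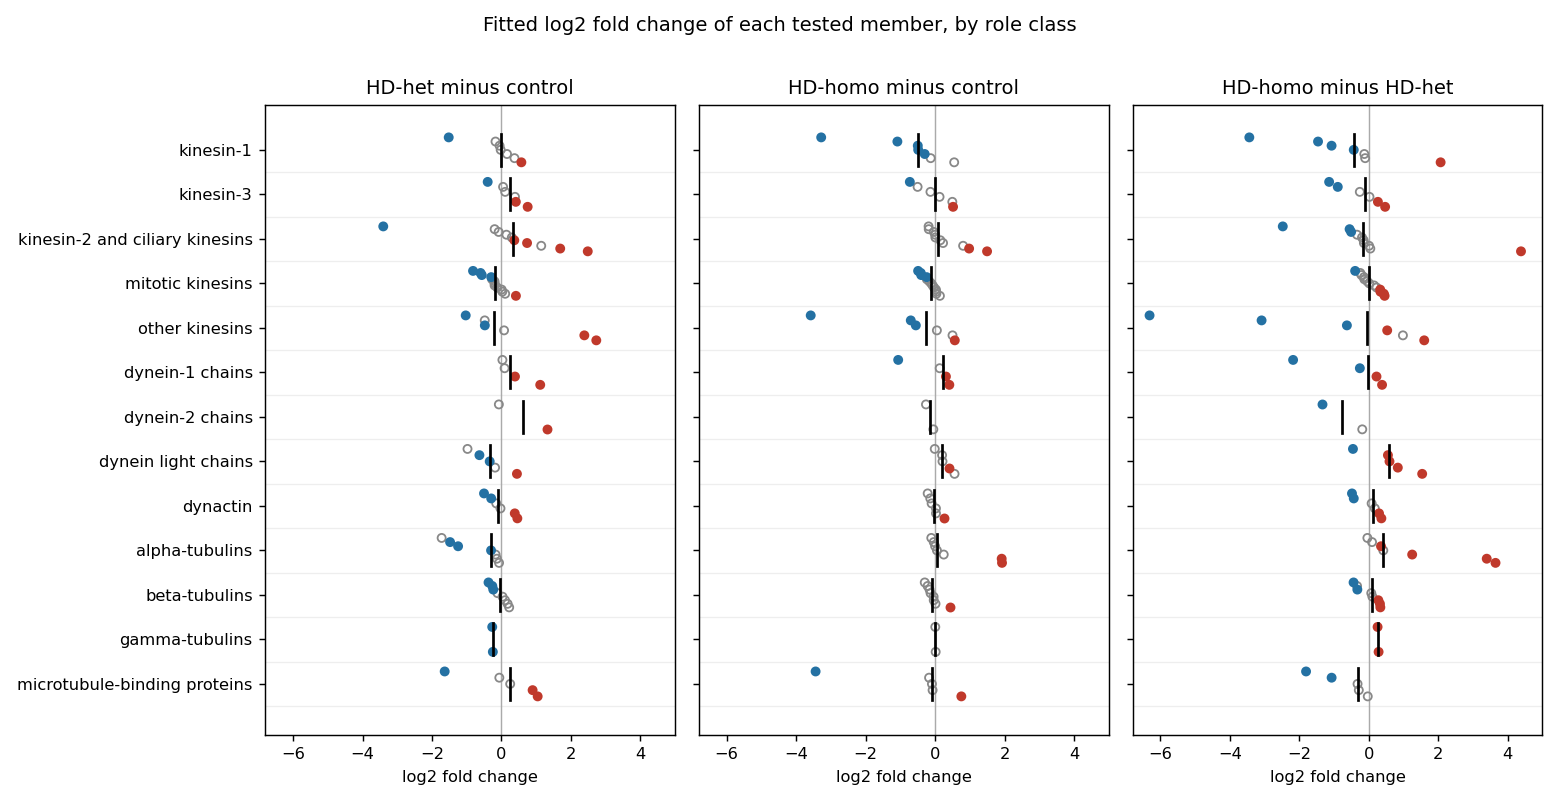
Fitted log2 fold change (x axis) of each of the tested members in 13 role classes (rows), for the 3 comparisons. Filled circles passed an adjusted p of 0.05 (red higher, blue lower), open circles did not, and the black bar is the median of the class. Kif5c, Kif26b and Map1b lie far to the left in both comparisons of HD-homo cells, and Tuba4a to the right.

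Coding length moved with these differences. Of the 25 tested members with a coding sequence of at least 3 kb, 10 were higher and 5 lower in HD-het cells than in control (median log2 fold change 0.25), beside 41.4% and 18% of all genes of that length, while of the 30 under 1500 bases 2 were higher and 12 lower (median -0.18), beside 26.7% and 33.9%. In HD-homo against HD-het cells the order was turned, with 5 higher and 10 lower among the long genes (median -0.26), beside 20.1% and 49.2% of all long genes, and 16 higher and 4 lower among the short ones (median 0.26), beside 41.1% and 26.6%. Across the 82 members, Spearman's rho of fold change with coding length was 0.38 in HD-het against control, -0.23 in HD-homo against control and -0.44 in HD-homo against HD-het cells. Across 12440 genes with a coding sequence it was 0.18, -0.13 and -0.22, so the members and the whole table shared the direction of the relation. These are descriptions across genes, which share libraries and are not independent replicates. Offsets fitted to each library's trend in GC content and coding length, a setting chosen after the data were seen, brought the members' rho to 0.12, 0.02 and -0.05. Counts of calls were similar, at 17 higher and 24 lower, 14 and 15, and 29 and 23. For all genes of at least 6000 bases, the median log2 fold change was 0.28, -0.25 and -0.57 without the offsets. With them it was -0.11, 0.14 and 0.20, so values of the longest members with the offsets may hold a trend that the offsets left or turned. Single long or short genes moved more. For a member's call that is printed below, the value with the offsets stands beside it where the call was lost or the value changed by over 1.5 times. Genes that are not members, such as Mki67, Cdk1 and Kidins220, are given without the offsets, so their values may hold the trend with length.

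**Figure D2:**
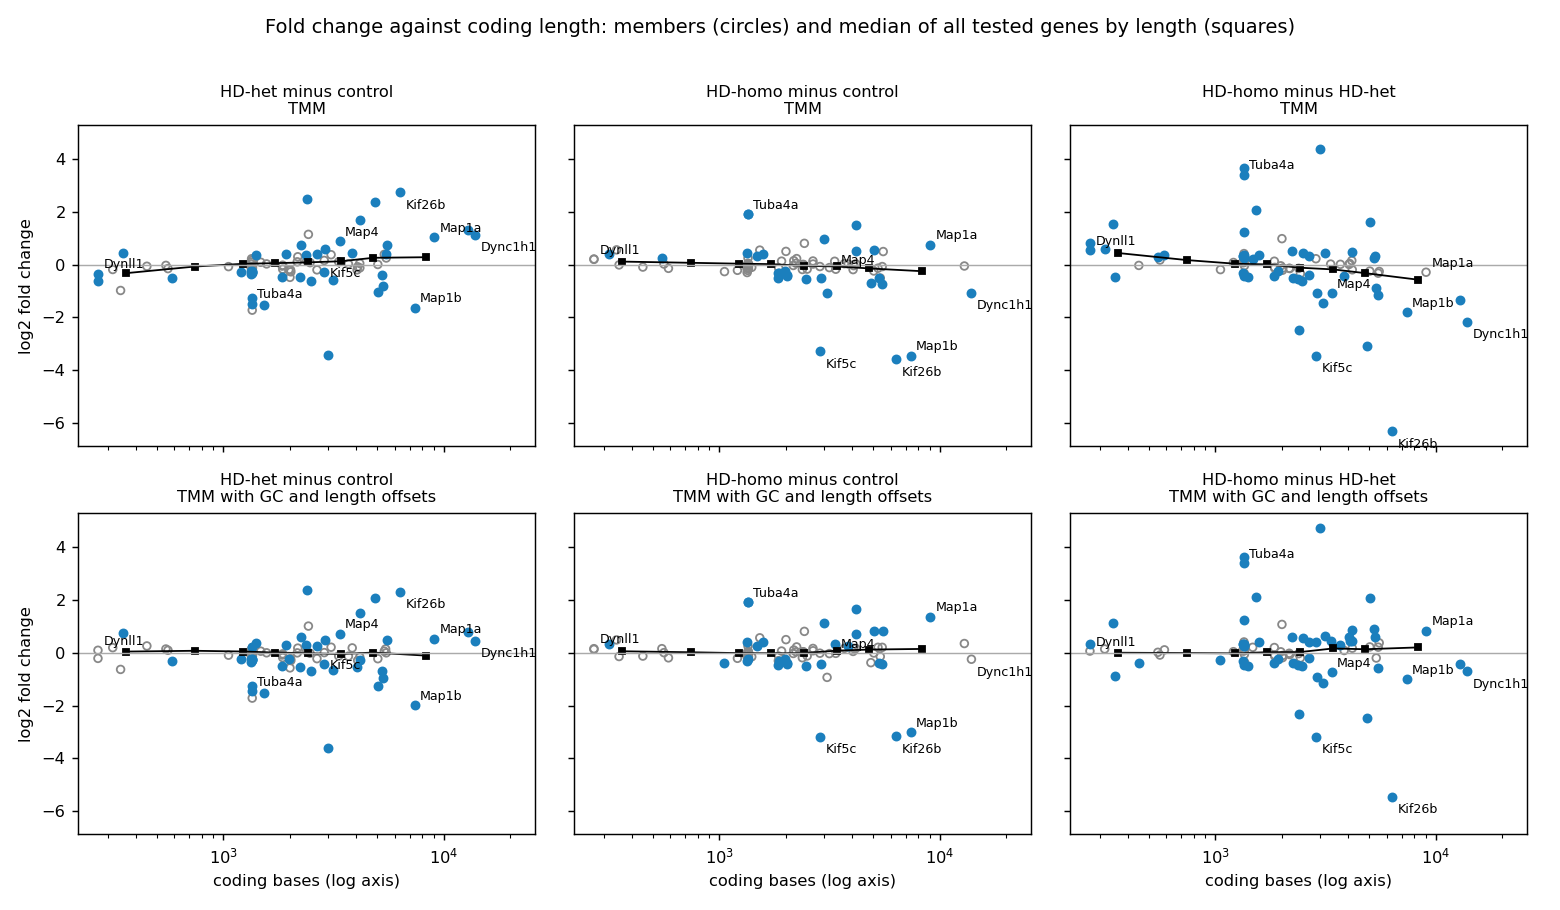
Log2 fold change (y axis) against coding bases (x axis, log scale) in the 3 comparisons, before (top) and after (bottom) the offsets for GC content and coding length. Circles are tested members, filled where the adjusted p was under 0.05, and black squares are the median of all tested genes in 8 length classes. The line of squares slopes up in HD-het against control and down in HD-homo against HD-het cells at the top. At the bottom it is flatter in these comparisons, but in the longest class it reaches 0.14 in HD-homo against control and 0.20 in HD-homo against HD-het cells.

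Kinesin-1, the main carrier of vesicles and mitochondria, is a dimer of Kif5 heavy chains with a pair of Klc light chains, and most of its genes had fewer footprints in HD-homo cells. Of its 7 genes, 5 were lower and none higher in HD-homo cells than in control (median log2 fold change -0.49), beside 22.3% and 23.3% of all genes. The widely expressed heavy chain Kif5b measured 249.9, 250.1 and 245 CPM in the control libraries, 379.5, 403 and 326 in HD-het and 165, 186 and 177 in HD-homo cells, so that no 2 lines overlapped. It was higher in HD-het cells than in control with a log2 change of 0.57 (SE 0.09, adjusted p = 0.000228), and lower in HD-homo cells with -0.50 (SE 0.09, adjusted p = 0.000883). The heavy chain Kif5c, which is enriched in neurons, measured 23.8, 23.0 and 22.2 CPM in control and 27.9, 27.2 and 21.8 in HD-het cells, but 2.67, 2.26 and 2.08 in HD-homo cells. It fell 9.72-fold against control (log2 -3.28, SE 0.14, adjusted p = 8.99e-09), whereas the difference between HD-het and control cells did not pass the threshold (log2 0.16, SE 0.11, adjusted p = 0.246). The neuronal heavy chain Kif5a was low, at 1.18, 0.737 and 1.28 CPM in control, 1.67, 1.21 and 1.18 in HD-het and 0.334, 0.879 and 0.266 in HD-homo cells. It was lower in HD-homo cells than in HD-het (log2 -1.46, SE 0.40, adjusted p = 0.00663). Its call against control (log2 -1.09, SE 0.41, adjusted p = 0.0469) was lost when any of HD-het replicate 1, HD-het replicate 2, HD-het replicate 3, HD-homo replicate 1, HD-homo replicate 3, control replicate 1 or control replicate 3 was left out (adjusted p = 0.0549 to 0.162), and with the offsets, at -0.94 (adjusted p = 0.0822). Per coding base, Kif5b made up 91.1% ± 0.222 (SD, n = 3) of the heavy chains (control), 93.2% ± 0.367 (HD-het) and 98.4% ± 0.244 (HD-homo).

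The light chain Klc1, which binds cargo, measured 75.1, 75.7 and 77.3 CPM in control, 78.3, 66.9 and 74.6 in HD-het and 53.8, 53.0 and 55.9 in HD-homo cells. It was lower in HD-homo cells than in control (log2 -0.49, SE 0.08, adjusted p = 0.000418) and than in HD-het cells (log2 -0.43, SE 0.08, adjusted p = 0.000503). The low-level light chain Klc3 went another way, at 3.63, 3.07 and 2.93 CPM in control, 1.40, 1.10 and 0.804 in HD-het and 5.28, 5.70 and 2.97 in HD-homo cells, with a log2 change of -1.52 (SE 0.28, adjusted p = 0.000623) in HD-het against control and 2.07 (SE 0.27, adjusted p = 4.2e-05) in HD-homo against HD-het cells. Its HD-homo and control libraries overlapped. Klc2 differed less, at 19.8, 17.6 and 16 CPM on average, and was lower in HD-homo cells than in control (log2 -0.30, SE 0.10, adjusted p = 0.0347). In HD-homo cells, pan-neuronal markers moved in the same direction as Kif5c, but markers of striatal projection neurons did not. Of 12 markers of striatal projection neurons 5 were tested. In HD-homo against control cells 3 of these were higher (Foxp1, Foxp2 and Penk) and none lower, beside 23.3% and 22.3% of all genes. Of 13 pan-neuronal genes 8 were tested. Of these, 7 were lower and none higher in HD-homo cells than in control, beside 22.3% and 23.3% of all genes. In HD-het cells, where Kif5c did not pass the threshold, 3 were lower than in control (Gap43, Nefm and Stmn2) and 1 higher (Ina), beside 29.1% and 31.0%. The list summed to 188 to 224 CPM in control, 96.6 to 119 in HD-het and 49.5 to 50.5 in HD-homo cells. Elavl3 and Snap25 stayed at or under 3 counts in all 9 libraries. Much of the fall of the sum from control to HD-het cells came from Stmn2, whose values are given below. The part of the list in the fall of Kif5c was not tested. In bulk libraries fewer cells of a type cannot be told apart from less RNA per cell.

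**Figure D3:**
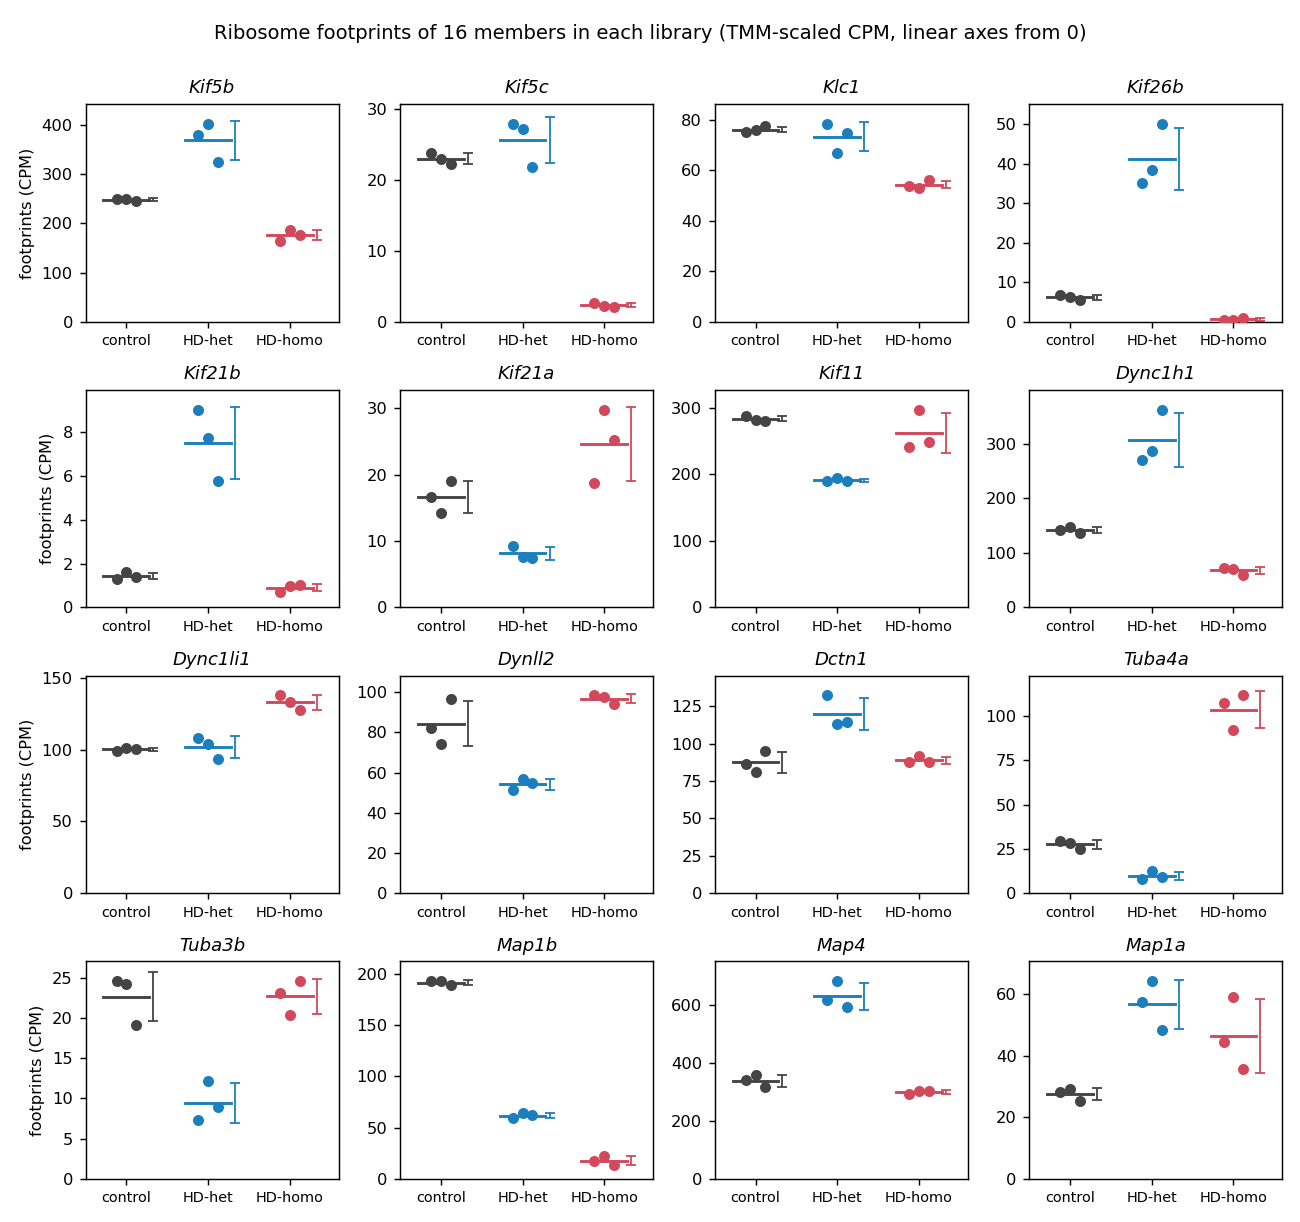
Ribosome footprints (y axis, TMM-scaled CPM, from 0) of 16 members in the 3 control, 3 HD-het and 3 HD-homo libraries. Points are libraries, horizontal bars the mean of a line and whiskers the SD. Kif5c, Kif26b and Map1b are near the bottom in HD-homo cells, Dync1h1, Map4 and Kif21b are highest in HD-het cells, and Tuba4a is highest in HD-homo cells.

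The kinesin-3 motors, which carry synaptic vesicle precursors, mitochondria and endosomes, did not move together. Kif1b measured 115, 116 and 116 CPM in control, 160.0, 157 and 144 in HD-het and 66.8, 78.0 and 64.3 in HD-homo cells, with no overlap between the lines. It was lower in HD-homo cells than in control (log2 -0.73, SE 0.09, adjusted p = 4.48e-05), and the log2 fold change was -0.43 (adjusted p = 0.000806) with the offsets. The rise in HD-het cells (log2 0.41, SE 0.09, adjusted p = 0.00169) was lost with the offsets, at 0.14 (adjusted p = 0.13). Kif1a, the neuronal member, was low at 2.56, 1.45 and 2.37 CPM in control, 2.73, 2.69 and 2.79 in HD-het and 1.20, 1.83 and 1.42 in HD-homo cells. The call for Kif1a in HD-homo against HD-het cells (log2 -0.89, SE 0.24, adjusted p = 0.00636) was also lost with the offsets, at -0.20 (adjusted p = 0.487). Kif16b, an endosomal motor, measured 13.3, 13.3 and 12.6 CPM in control, 13.4, 13.3 and 13.8 in HD-het and 16.6, 20.3 and 19.2 in HD-homo cells, and was higher in HD-homo cells than in control (log2 0.52, SE 0.10, adjusted p = 0.00136). Kif13b rose in HD-het cells (log2 0.75, SE 0.19, adjusted p = 0.00479), from 11.4, 11.4 and 10.3 to 19.9, 20.7 and 15.1 CPM. With the offsets that value was 0.47 (adjusted p = 0.0385), and the value in HD-homo against control cells passed the threshold, at 0.84 (adjusted p = 0.00264) instead of 0.49 (SE 0.19, adjusted p = 0.051).

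The kinesin-2 motors and other kinesins of cilia varied in both directions. Heterotrimeric kinesin-2, which drives transport along the cilium and carries vesicles in axons, consists of Kif3a, Kif3b and the adaptor Kifap3. Kif3a measured 47.6, 42.4 and 44.2 CPM in control, 62.6, 53.1 and 49.1 in HD-het and 45.0, 61.2 and 42.6 in HD-homo cells and passed the threshold in no comparison (HD-het against control, log2 0.30, SE 0.14, adjusted p = 0.0855). Its partner Kif3b was higher in HD-het cells, at 26.5, 26.7 and 28.9 CPM in control, 48.7, 45.3 and 42.7 in HD-het and 29.1, 35.8 and 31.2 in HD-homo cells (log2 0.74, SE 0.10, adjusted p = 7.12e-05). Kifap3 was higher too (log2 0.37, SE 0.10, adjusted p = 0.00921), with means of 75.4, 97.3 and 66.4 CPM. Of the 10 tested genes of this class, 4 were higher and 1 lower in HD-het cells than in control (beside 31.0% and 29.1% of all genes), 2 and 0 in HD-homo against control cells (beside 23.3% and 22.3%), and 1 and 3 in HD-homo against HD-het cells (beside 34.6% and 32.8%). Of 5 markers of multiciliated cells with a row, Dnah5 and Dnah9 stayed at or under 3 counts in all libraries, and the summed level was 4.36 to 5.80 CPM in control, 3.31 to 4.12 in HD-het and 1.42 to 2.94 in HD-homo cells.

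Mitotic kinesins had footprints in all lines, and the share of them that was lower in HD-het cells was close to that over all genes. Of 13 tested, 4 were lower and 1 higher in HD-het cells than in control (beside 29.1% and 31.0% of all genes). In HD-homo cells 4 were lower and none higher than in control (beside 22.3% and 23.3%), namely Kif20b, Kif22, Kifc1 and Kifc5b. Kifc1 and Kifc5b share 76.3% and 71.6% of their stretches, mostly with each other, so their calls are not independent, and their sum was not tested. Against HD-het cells, 1 was lower and 4 higher in HD-homo cells (beside 32.8% and 34.6%). Kif11, the motor that pushes spindle poles apart, measured 288, 282 and 280.2 CPM in control, 190.2, 194 and 189.6 in HD-het and 241, 297 and 248 in HD-homo cells. The HD-het libraries lay below all others (log2 -0.57, SE 0.09, adjusted p = 0.000196 against control), while the HD-homo libraries overlapped the control libraries. Kif20b, which acts in cytokinesis, fell from 165, 156 and 169 CPM in control to 85.7, 86.8 and 106 in HD-het and 106, 135 and 109 in HD-homo cells (log2 -0.82, SE 0.11, adjusted p = 9.03e-05 and -0.49, SE 0.11, adjusted p = 0.00415). Its call in HD-homo against HD-het cells (log2 0.33, SE 0.11, adjusted p = 0.0221) was lost when any of HD-het replicate 1, HD-het replicate 2 or HD-homo replicate 2 was left out (adjusted p = 0.0828 to 0.0904), and the value was 0.59 (adjusted p = 0.000575) with the offsets. Kif18b, a regulator of astral microtubule length, measured 49.3, 55.1 and 51.9 CPM in control, 34.6, 31.0 and 37.4 in HD-het and 53.4, 46.8 and 38.5 in HD-homo cells, and was lower in HD-het cells than in control (log2 -0.60, SE 0.12, adjusted p = 0.00124). Kif23, the motor of the midzone complex that acts in cytokinesis, measured 252, 253 and 263 CPM in control, 202, 209.8 and 214 in HD-het and 245, 282 and 203 in HD-homo cells. Its call in HD-het cells (log2 -0.30, SE 0.11, adjusted p = 0.0305) was lost when any of HD-het replicate 1, HD-het replicate 2, control replicate 1, control replicate 2 or control replicate 3 was left out (adjusted p = 0.0541 to 0.079). Kif20a, another motor of cytokinesis, was the only mitotic kinesin called higher in HD-het cells, at 272, 278 and 263 CPM in control, 360.2, 370.3 and 354 in HD-het and 280.0, 294 and 252 in HD-homo cells (log2 0.42, SE 0.08, adjusted p = 0.000797, and 0.27, adjusted p = 0.00825 with the offsets).

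Other mitotic genes of a list of 40, of which 39 were tested, also differed in both directions. In HD-het against control cells 6 were higher and 16 lower (median log2 fold change -0.16), in HD-homo against control cells 9 and 7 (median -0.01), and in HD-homo against HD-het cells 16 and 8 (median 0.24). Over all genes the shares higher and lower were 31.0% and 29.1%, 23.3% and 22.3%, and 34.6% and 32.8%. Cdk1, the kinase that starts mitosis, averaged 848 CPM (control), 457 (HD-het) and 914 (HD-homo) (log2 -0.89, SE 0.07, adjusted p = 1.58e-06 in HD-het against control), and Racgap1, the partner of Kif23 in the midzone complex, 494, 248 and 443 CPM (log2 -1.0, SE 0.07, adjusted p = 1.06e-06 in HD-het against control). Mki67, a marker of cycling cells, was higher in HD-het cells than in control, with means of 155, 345 and 108 CPM in the 3 lines in the same order (log2 1.15, SE 0.13, adjusted p = 1.76e-05). The list summed to 7542 to 7613 CPM in control, 6725 to 6844 in HD-het and 6717 to 8082 in HD-homo cells. The part of cell cycle differences in the values of the mitotic kinesins was not tested.

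Among the remaining kinesins, Kif26b had the widest span of all members named here. Kif26b, a kinesin of the KIF26 family that lacks motor activity, measured 6.68, 6.35 and 5.53 CPM in control, 35.0, 38.5 and 50.1 in HD-het and 0.389, 0.382 and 0.842 in HD-homo cells. It was 6.64-fold higher in HD-het cells than in control (log2 2.73, SE 0.18, adjusted p = 5.34e-07) and 12-fold lower in HD-homo cells (log2 -3.58, SE 0.26, adjusted p = 7.71e-07), on 14, 10 and 19 counts in the 3 HD-homo libraries. Kif21b, a regulator of microtubule growth in neurons and immune cells, showed a like order at a lower level, with 1.30, 1.59 and 1.39 CPM in control, 9.03, 7.75 and 5.77 in HD-het and 0.723, 0.956 and 1.02 in HD-homo cells. The rise in HD-het cells had a log2 change of 2.39 (SE 0.20, adjusted p = 2.89e-06). The fall in HD-homo cells (log2 -0.70, SE 0.24, adjusted p = 0.0346) was lost when any of HD-homo replicate 1, HD-homo replicate 2, control replicate 2 or control replicate 3 was left out (adjusted p = 0.0503 to 0.127), and with the offsets, at -0.38 (adjusted p = 0.23). Its relative Kif21a was opposite, at 16.6, 14.2 and 19.0 CPM in control, 9.30, 7.64 and 7.42 in HD-het and 18.8, 29.8 and 25.2 in HD-homo cells (log2 -1.03, SE 0.18, adjusted p = 0.000445 in HD-het and 0.57, SE 0.17, adjusted p = 0.018 in HD-homo against control). The second of these calls was lost when any of HD-homo replicate 2, control replicate 1 or control replicate 2 was left out (adjusted p = 0.0556 to 0.0774). Kif2a, which takes tubulin off microtubule ends, was lower in HD-het cells, at 163, 164 and 156 CPM in control, 117, 117 and 112 in HD-het and 171, 169 and 161 in HD-homo cells (log2 -0.48, SE 0.07, adjusted p = 0.000126).

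The heavy chain of cytoplasmic dynein and its smaller chains did not move together. Dync1h1, the heavy chain that holds the motor, measured 141, 147 and 137 CPM in control, 271, 287 and 363 in HD-het and 71.7, 71.1 and 60.1 in HD-homo cells, with the 3 lines apart. It was 2.17-fold higher in HD-het cells than in control (log2 1.12, SE 0.11, adjusted p = 1.13e-05) and 2.09-fold lower in HD-homo cells than in control (log2 -1.06, SE 0.12, adjusted p = 2e-05). Its coding sequence of 13935 bases is the longest among the members. With the offsets for GC content and length the log2 fold change was 0.46 (adjusted p = 0.00172) in HD-het and -0.25 (adjusted p = 0.0531) in HD-homo cells, the latter no longer past the threshold, and -0.70 (adjusted p = 6.68e-05) in HD-homo against HD-het cells. The intermediate chain Dync1i2, which links the motor to dynactin, measured 257, 243 and 247 CPM in control, 339, 334 and 305 in HD-het and 231, 306 and 281 in HD-homo cells, and was higher in HD-het cells than in control (log2 0.39, SE 0.10, adjusted p = 0.00649). Its fall from HD-het to HD-homo cells (log2 -0.26, SE 0.10, adjusted p = 0.042) was lost when any of HD-het replicate 1, HD-het replicate 2, HD-homo replicate 1, HD-homo replicate 3, control replicate 1, control replicate 2 or control replicate 3 was left out (adjusted p = 0.0549 to 0.143). Its neuronal counterpart Dync1i1 had 0, 2 and 0 counts in control, 3, 9 and 2 in HD-het and 3, 0 and 0 in HD-homo libraries and was not tested. The light intermediate chains, which hold cargo adaptors, were higher in HD-homo cells. Dync1li1 measured 98.8, 101 and 101 CPM in control, 108, 104 and 93.8 in HD-het and 138, 133 and 128 in HD-homo cells (log2 0.41, SE 0.08, adjusted p = 0.00124 against control), and Dync1li2 measured 93.6, 88.1 and 82.9 CPM in control, 99.5, 95.2 and 86.6 in HD-het and 102, 109.6 and 117 in HD-homo cells (log2 0.31, SE 0.09, adjusted p = 0.0132). The call of Dync1li2 against control was lost when control replicate 3 was left out (adjusted p = 0.0575). Dync2h1, the heavy chain of the dynein that works inside cilia, was higher in HD-het cells, at 8.78, 7.47 and 7.94 CPM in control, 18.5, 22.9 and 17.9 in HD-het and 8.07, 9.52 and 5.59 in HD-homo cells (log2 1.30, SE 0.17, adjusted p = 7.27e-05, and 0.78, adjusted p = 0.000903 with the offsets).

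Of 9 dynein light chain genes 5 were tested. Dynll1, Dynll2, Dynlrb1 and Dynlt1b were higher in HD-homo cells than in HD-het and Dynlt3 was lower (log2 -0.46, SE 0.12, adjusted p = 0.00431, and -0.90, adjusted p = 0.000107 with the offsets). Over all genes 34.6% were higher and 32.8% lower. Dynll2, a light chain that also binds many proteins outside dynein, measured 82.0, 74.3 and 96.6 CPM in control, 51.3, 56.6 and 54.8 in HD-het and 98.4, 97.7 and 94.2 in HD-homo cells (log2 -0.64, SE 0.10, adjusted p = 0.000205 in HD-het against control and 0.84, SE 0.10, adjusted p = 1.85e-05 in HD-homo against HD-het). With the offsets the first was -0.22 (adjusted p = 0.0723) and the second 0.34 (adjusted p = 0.00839). Its relative Dynll1 measured 383, 373 and 390.2 CPM in control, 318, 262 and 326 in HD-het and 488, 442 and 396 in HD-homo cells (log2 -0.34, SE 0.10, adjusted p = 0.014 and 0.55, SE 0.10, adjusted p = 0.000588). Neither call was kept with the offsets, at 0.09 (adjusted p = 0.526) and 0.06 (adjusted p = 0.664). Dynlrb1, the roadblock chain, measured 117, 111 and 124 CPM in control, 94.7, 107 and 108 in HD-het and 142, 161 and 164 in HD-homo cells (log2 0.41, SE 0.09, adjusted p = 0.00296 in HD-homo against control), and the call against HD-het cells (log2 0.60, SE 0.09, adjusted p = 0.000115) was lost with the offsets, at 0.14 (adjusted p = 0.129). The 5 tested chains have coding sequences of at most 351 bases. The 4 Dynlt1 copies, which share nearly all of their stretches, summed to only 0.802, 0.904 and 1.17 CPM in control, 0.266, 0.852 and 0.567 in HD-het and 1.28, 1.19 and 1.15 in HD-homo cells, and their sum was higher in HD-homo cells than in HD-het (log2 1.05, SE 0.33, adjusted p = 0.0152).

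Dynactin, the complex that makes dynein processive, was split by subunit. Its largest subunit Dctn1 (p150Glued), which binds microtubules, measured 86.3, 81.2 and 94.8 CPM in control, 132, 113 and 114 in HD-het and 87.5, 91.6 and 87.5 in HD-homo cells. The rise in HD-het cells (log2 0.46, SE 0.09, adjusted p = 0.000967) was lost with the offsets, at 0.18 (adjusted p = 0.098). The fall in HD-homo against HD-het cells (log2 -0.43, SE 0.09, adjusted p = 0.0011) changed sign with them, at 0.08 (adjusted p = 0.431). Of the other subunits, Dctn4 was higher in HD-het cells than in control (log2 0.38, SE 0.07, adjusted p = 0.000496), and Dctn2 and Dctn6 were lower (log2 -0.30, SE 0.09, adjusted p = 0.0111 for Dctn2). For Dctn6 the log2 fold change was -0.50 (SE 0.09, adjusted p = 0.000613), and -0.30 (adjusted p = 0.0126) with the offsets. Dctn5 was higher in HD-homo cells than in control (log2 0.27, SE 0.08, adjusted p = 0.0191), a call lost with the offsets, at 0.15 (adjusted p = 0.117), and Dctn3 passed the threshold in no comparison. No dynactin subunit differed by 2-fold between any lines.

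The sum of alpha-tubulin footprints passed the threshold in no comparison, but the minor gene Tuba4a did in all of them. The 7 alpha-tubulin genes summed to 2196, 2407 and 2072 CPM in control, 1900.2, 2127 and 1821 in HD-het and 2773, 1890.5 and 2124 in HD-homo libraries. The log2 fold change of the sum was -0.19 (SE 0.13, adjusted p = 0.227) in HD-het and 0.02 (SE 0.13, adjusted p = 0.898) in HD-homo against control. Most of it came from Tuba1a, at 675, 752 and 617 CPM in the control libraries, Tuba1b, at 672, 755 and 619.5, and Tuba1c, at 792, 844 and 788. In HD-homo cells Tuba1a ranged from 515 to 802 and Tuba1b from 537 to 838 CPM, with HD-homo replicate 1 the highest of all 9 libraries for both. Neither passed the threshold in any comparison (HD-homo against control, log2 -0.11, SE 0.15, adjusted p = 0.571 and -0.04, SE 0.15, adjusted p = 0.849). Tuba1c was lower in HD-het cells than in control (log2 -0.30, SE 0.12, adjusted p = 0.0416). The 3 genes share nearly all of their 28-nt stretches, so these single values are uncertain.

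Tuba4a measured 29.3, 28.3 and 24.8 CPM in control, 7.86, 12.4 and 9.03 in HD-het and 107, 92.1 and 112 in HD-homo cells, with wide gaps between the lines. It was 2.79-fold lower in HD-het cells than in control (log2 -1.48, SE 0.16, adjusted p = 1.31e-05) and 3.77-fold higher in HD-homo cells (log2 1.92, SE 0.15, adjusted p = 1.32e-06). Between HD-homo and HD-het cells the difference was 10.5-fold (log2 3.40, SE 0.16, adjusted p = 1.75e-08). Per coding base, Tuba4a made up 1.24% ± 0.0843 of alpha-tubulin footprints (control), 0.5% ± 0.0859 (HD-het) and 4.69% ± 0.72 (HD-homo) (SD, n = 3). Tuba3b, which shares 57.2% of its stretches, mostly with Tuba3a, measured 24.6, 24.2 and 19.2 CPM in control, 7.29, 12.2 and 8.98 in HD-het and 23.1, 20.4 and 24.6 in HD-homo cells (log2 -1.25, SE 0.17, adjusted p = 9.7e-05 in HD-het against control and 1.25, SE 0.17, adjusted p = 6.79e-05 in HD-homo against HD-het). Its HD-homo and control libraries overlapped.

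**Figure D4:**
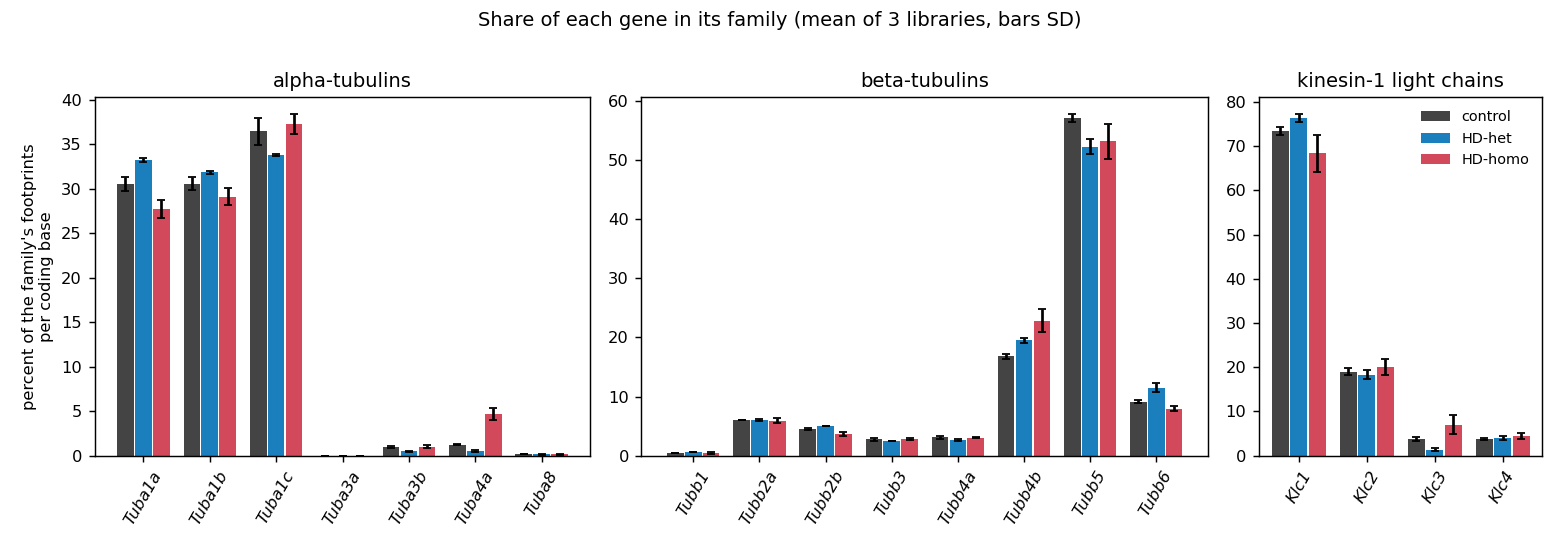
Share of each gene (y axis, percent of the footprints per coding base of its family) in the alpha-tubulins, the beta-tubulins and the kinesin-1 light chains. Bars are means of 3 libraries of the control, HD-het and HD-homo lines and whiskers the SD. Tubb5 made up over 50% of beta-tubulin in every line, and Tuba4a was the alpha-tubulin whose share differed most in proportion among those over 0.1%.

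The sum of beta-tubulin footprints passed the threshold in no comparison either. The 9 beta-tubulin rows summed to 3465, 3741 and 3592 CPM in control, 3391, 3404 and 3213 in HD-het and 3983, 3347 and 3285 in HD-homo libraries, with a log2 change of -0.11 (SE 0.09, adjusted p = 0.3) in HD-het and -0.02 (SE 0.09, adjusted p = 0.846) in HD-homo against control. Tubb5, the main isotype of dividing cells, measured 1987, 2105 and 2060.4 CPM in control, 1759, 1826 and 1639.7 in HD-het and 2010.5, 1753 and 1849 in HD-homo cells. Its fall in HD-het cells (log2 -0.24, SE 0.08, adjusted p = 0.0244) was lost when any of HD-het replicate 3, control replicate 2 or control replicate 3 was left out (adjusted p = 0.0561 to 0.0791). Tubb4b measured 574, 649 and 597 CPM in control, 660.0, 651 and 642 in HD-het and 983, 775 and 681 in HD-homo cells, with HD-homo replicate 1 again the highest. Its rise in HD-homo against control cells (log2 0.42, SE 0.12, adjusted p = 0.013) was lost when control replicate 1 was left out (adjusted p = 0.063), and the rise against HD-het cells when any of HD-het replicate 1, HD-het replicate 2, HD-het replicate 3 or HD-homo replicate 1 was left out (adjusted p = 0.066 to 0.128). Tubb6 was lower in HD-homo cells than in HD-het (log2 -0.44, SE 0.10, adjusted p = 0.00303), with 402, 365 and 389 CPM in HD-het and 336, 259.8 and 257 in HD-homo cells. Tubb3, known as the neuronal isotype, was present in all lines, at 101, 95.3 and 107 CPM in control, 86.1, 83.1 and 83.3 in HD-het and 106, 99.3 and 100.1 in HD-homo cells, and was lower in HD-het cells than in control (log2 -0.26, SE 0.07, adjusted p = 0.00905). Tubb2a, with means of 217, 201 and 211 CPM in the 3 lines in that order, passed the threshold in no comparison (HD-homo against control, log2 -0.04, SE 0.10, adjusted p = 0.759). Tubb2b was lower in HD-homo cells than in HD-het (log2 -0.33, SE 0.12, adjusted p = 0.0292), a call lost when any of HD-het replicate 1, HD-het replicate 2, HD-homo replicate 2 or HD-homo replicate 3 was left out (adjusted p = 0.06 to 0.11).

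Both gamma-tubulins, which nucleate microtubules at the centrosome, were called lower in HD-het cells than in control, beside 29.1% of all genes. Tubg1 measured 70.9, 69.7 and 77.0 CPM in control, 63.8, 56.3 and 63.2 in HD-het and 72.3, 78.1 and 67.8 in HD-homo cells (log2 -0.25, SE 0.09, adjusted p = 0.0278 in HD-het against control). That call was lost when either HD-het replicate 2 or control replicate 3 was left out (adjusted p = 0.0851 to 0.102). Tubg2, which shares 33.0% of its stretches with Tubg1, had a log2 change of -0.27 (SE 0.10, adjusted p = 0.0436). Per coding base Tubg1 made up 70.7% ± 0.662 of the pair (control), 70.9% ± 0.9 (HD-het) and 70.5% ± 0.934 (HD-homo).

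Of the microtubule-binding proteins, Map1b fell in both mutant lines. Map1b, a neuronal protein that stabilizes microtubules in growing axons, measured 193, 193 and 189 CPM in control, 58.9, 63.9 and 62.0 in HD-het and 17.8, 21.8 and 13.2 in HD-homo cells, and the 3 lines did not overlap. It was 3.11-fold lower in HD-het (log2 -1.64, SE 0.14, adjusted p = 2.87e-06) and 10.9-fold lower in HD-homo cells than in control (log2 -3.44, SE 0.15, adjusted p = 1.19e-08). It was the only member called lower in HD-het than in control and lower again in HD-homo cells than in HD-het (log2 -1.81, SE 0.14, adjusted p = 8.48e-07, and -1.02, adjusted p = 2.95e-05 with the offsets). Map1a, its relative in mature neurons, went the other way, at 28.1, 29.2 and 25.4 CPM in control, 57.6, 64.3 and 48.3 in HD-het and 44.5, 59.3 and 35.7 in HD-homo cells (log2 1.04, SE 0.17, adjusted p = 0.000275 and 0.75, SE 0.17, adjusted p = 0.00348 against control). With the offsets the values were 0.52 (adjusted p = 0.0139) and 1.35 (adjusted p = 4.23e-05), and the value in HD-homo against HD-het cells turned from -0.29 (SE 0.17, adjusted p = 0.143) to 0.83 (adjusted p = 0.00066). Its order between the mutant lines therefore depends on the treatment of length.

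Map4, the main microtubule-binding protein of non-neuronal cells, measured 339, 359 and 317 CPM in control, 616, 682 and 591 in HD-het and 292, 303 and 303 in HD-homo cells. It was higher in HD-het cells than in control (log2 0.90, SE 0.08, adjusted p = 5.11e-06), while HD-homo cells did not pass the threshold (log2 -0.17, SE 0.08, adjusted p = 0.103). Map2, the dendritic protein, measured 50.6, 51.0 and 37.8 CPM in control, 59.9, 58.8 and 47.3 in HD-het and 39.8, 41.4 and 51.6 in HD-homo cells and passed no threshold (HD-het against control, log2 0.25, SE 0.14, adjusted p = 0.152). Stmn1, which binds free tubulin, was abundant and uneven within lines, at 396, 333 and 325 CPM in control, 372, 323 and 314 in HD-het and 298, 403 and 288 in HD-homo cells, and passed no threshold either (HD-homo against control, log2 -0.09, SE 0.13, adjusted p = 0.61). With the offsets its value in HD-homo against HD-het cells passed, at -0.38 (adjusted p = 0.0251) instead of -0.03 (SE 0.13, adjusted p = 0.854), while 96.5% of its stretches are shared. Tau, encoded by Mapt, was near 0, with 1, 0 and 0 counts in control, 2, 6 and 4 in HD-het and 1, 1 and 1 in HD-homo libraries. Dcx, a protein of migrating neurons, had 3, 6 and 2 counts in control, 2, 3 and 1 in HD-het and 11, 8 and 7 in HD-homo libraries. Neither was tested.

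The adaptors and regulators that act on these motors were described from a list of 31 genes, 30 of which were tested. In HD-het against control cells 7 were higher and 9 lower (median log2 fold change -0.08), in HD-homo against control cells 3 and 9 (median -0.16), and in HD-homo against HD-het cells 8 and 11 (median -0.14). The shares of all genes, as above, were 31.0% and 29.1%, 23.3% and 22.3%, and 34.6% and 32.8%. Hook1, a dynein adaptor, averaged 7.55 ± 1.21 CPM (control), 1.78 ± 0.174 (HD-het) and 0.0773 ± 0.0335 (HD-homo) (SD, n = 3). Against control its log2 fold change was -2.07 (SE 0.17, adjusted p = 2.87e-06) in HD-het and -6.44 (SE 0.28, adjusted p = 1.12e-08) in HD-homo cells, on 4, 2 and 1 counts in the HD-homo libraries. Hap1, the protein that joins huntingtin to both motors, was low at 3.02, 2.62 and 3.69 CPM in control, 1.56, 1.13 and 0.52 in HD-het and 2.70, 2.22 and 1.33 in HD-homo cells (log2 -1.49, SE 0.33, adjusted p = 0.00241 in HD-het against control). Bicd1, another dynein adaptor, fell in HD-homo cells from 12, 10.9 and 12.9 to 3.48, 4.59 and 2.53 CPM (log2 -1.75, SE 0.19, adjusted p = 1.95e-05). Kidins220, a receptor scaffold carried by kinesin-1, averaged 46.6 CPM (control), 90.7 (HD-het) and 28.5 (HD-homo) (log2 0.96, SE 0.10, adjusted p = 1.03e-05 in HD-het and -0.71, SE 0.10, adjusted p = 0.00013 in HD-homo against control).

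Of 53 genes for microtubule ends, severing, tubulin folding and tubulin modification, 48 were tested. In HD-het against control cells 16 were higher and 10 lower (median log2 fold change 0.03), in HD-homo against control cells 11 and 7 (median 0.08), and in HD-homo against HD-het cells 12 and 16 (median -0.01). These stood beside 31.0% and 29.1%, 23.3% and 22.3%, and 34.6% and 32.8% of all genes. Stmn2, a neuronal relative of Stmn1 that is also on the pan-neuronal list, measured 104, 90.4 and 67.8 CPM in control, 7.89, 9.18 and 8.65 in HD-het and 7.15, 6.38 and 4.70 in HD-homo cells (log2 -3.35, SE 0.18, adjusted p = 1.18e-07 and -3.83, SE 0.19, adjusted p = 2.88e-08 against control). Its fall ran beside that of Map1b, and the part of neuronal markers in either was not tested. Map7d3 had 28, 33 and 30 counts in the HD-het libraries and none in any control or HD-homo library. Against a floor of 3 counts per library its level in HD-het cells was at least 11.3-fold higher than in control and at least 10.2-fold higher than in HD-homo cells (adjusted p = 6.8e-05 and 5.49e-05). Clip4, a plus-end protein, rose in HD-homo cells from 3.63, 3.62 and 4.18 to 16.5, 21.1 and 29.3 CPM (log2 2.55, SE 0.19, adjusted p = 1.1e-06).

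Levels of different genes can be compared per coding length. In control cells Tubb5 stood highest among the members with 1536 CPM per kb of coding sequence, followed by Dynll1 with 1415, Stmn1 with 780.5 and Tuba1c with 599. Tuba1b and Tuba1a followed with 503 and 502 CPM per kb and did not differ beyond their spread. In HD-homo cells Dynll1 came first, with 1638 (SD 170) against 1401 (SD 97.4) CPM per kb for Tubb5. Neither gene passed the threshold in HD-homo against control cells (log2 0.21 for Dynll1 and -0.13 for Tubb5). These levels are without the offsets and Dynll1 has 270 coding bases, so its rank may hold the trend with length. Dynll1 shares 51.0% of its stretches, and Stmn1, Tuba1a, Tuba1b and Tuba1c each share at least 95.2%, so their places are uncertain. The dynein heavy chain Dync1h1 reached 10.2 CPM per kb (control), 22.0 (HD-het) and 4.86 (HD-homo), beside 129.9, 170.0 and 142 for its intermediate chain Dync1i2. Dync1h1 has 13935 coding bases and Dync1i2 has 1917, so the differences of this pair among the lines may hold that trend too. The kinesin-1 heavy chain Kif5b reached 85.9, 128 and 60.8 CPM per kb, beside 41.1, 39.6 and 29.3 for the light chain Klc1.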

How the data were processed

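Ribosome footprint counts per gene were analysed as deposited. Per the labels and the study's methods, cells were lysed after cycloheximide, digested with RNases T1 and A for 30 min, and fragments of 26 to 32 nt from the monosome fraction were sequenced after rRNA depletion. The submitters' processing notes name cutadapt, Bowtie 1.0.1 and build mm10. The counting program, annotation and treatment of multiply matching fragments are not given in the sources used here. No matched mRNA was used, so values are footprint abundances, not translation efficiencies.

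Of 36410 rows, 26 carried names that a spreadsheet turned into dates and held 0.252% of counts. They stayed in the library totals. Genes kept by filterByExpr were tested with the edgeR (4.0.16) quasi-likelihood F test, two-sided, with TMM factors and 1 fit over all 9 libraries (R 4.3.3, limma 3.58.1). P-values were adjusted by Benjamini-Hochberg over 12678 genes with a threshold of 0.05. Within lines, the coefficient of variation between libraries that edgeR estimated beyond counting error was 8.83% (control), 10.5% (HD-het) and 16% (HD-homo). The procedure was checked on simulated counts drawn with the spread that edgeR fitted. They held no trend with length or GC content and no batch, so the check does not bear on these. Alternatives were other scalings, filters, DESeq2 (1.42.0), fits of 6 libraries, a replicate block, stricter thresholds, families summed, each library left out, and offsets for GC content and coding length.

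Groups came from the labels. Of the members, 31 were named whatever their values, with the 8 largest rises and falls of each comparison among members past the threshold and at least at 5 CPM. Others were named within a class or pattern after their values were seen. At most 3 related genes per list and comparison were named, by size of change. Members and lists were chosen with earlier results of these data known. Coding sequences came from GENCODE M21 on GRCm38, and overlaps from RefSeq gene positions on GRCm38.p6. No p-value was computed for any list. A few items that the naming rules would take are not reported here.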

Additional observations from a re-analysis of the deposited data

How the results depend on the processing

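Requiring a change of at least 2-fold left 7 higher and 6 lower members in HD-het against control, 3 and 5 in HD-homo against control, and 7 and 11 in HD-homo against HD-het cells. An adjusted p under 0.01 left 15 lower in HD-het against control, and 7 higher and 9 lower in HD-homo against control. With library totals alone, 10 were lower in HD-homo against control. Leaving out 1 library gave 17 to 20 higher and 18 to 25 lower, 8 to 14 and 9 to 19, and 20 to 28 and 21 to 30 in the 3 comparisons, and 51 to 61 that differed among the lines. Other counts stayed within 1.5 times the reported ones in every alternative run. Deviations of libraries with the same replicate number correlated at -0.356 to 0.175, so the numbers gave no sign of pairing. The highest value, 0.376, was between unlike numbers, control replicate 2 and HD-homo replicate 1. A batch shared by libraries of unlike number was not tested, and a block by replicate number cannot show it. The replicate block gave 18 higher and 22 lower, 13 and 13, 25 and 23, and 53 in any comparison.

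Of 81 named values past the threshold, 58 kept their call in all 18 alternatives, and 23 lost it in some. Values that turned direction with the offsets for GC content and coding length were Dctn1 in HD-homo against HD-het cells (0.081), Dynll1 in HD-het against control (0.0899) and Map1a in HD-homo against HD-het cells (0.833). That the trend with coding length and GC content was reduced is the construction of the setting. Whether the trend with length is technical was not tested. A further 65 sign changes, over 26 values of at most 0.37 in size, concerned values past the threshold in neither fit. Intervals from 3 libraries per line limit precision, and members at few counts, such as Kif5a, Kif26b in HD-homo cells and Hook1, have little depth behind them.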
